A study of Mus musculus with 8 samples.

Results

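The genes described here are the potassium channel genes of the mouse: protein-coding RefSeq genes on assembly GRCm38 whose symbol starts with Kcn, with 2 genes of that family left out by the rule of choice. They numbered 92 of 21631 protein-coding genes on the autosomes and chromosome X. Chromatin immunoprecipitation with sequencing (ChIP-seq) had been carried out on kidney cortex with antibodies against Mta2, Mbd3 and Zbtb7a. All groups came from mice of genotype Mta2flx/flx aged 2 months. The 8 libraries form 4 groups, Input chromatin and 1 group per antibody, with 2 mice each, and the mice carry the same numbers across groups. Mta2flx/flx denotes an Mta2 gene flanked by loxP sites, which is cut out only where Cre recombinase is present. The sample labels name no Cre, so these animals are described only by that genotype. The series title concerns loss of Mta2 from nephron progenitors, and no library from such animals was analysed here.

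Potassium channels let potassium ions leave or enter cells and thereby set the membrane potential. In kidney tubules they recycle and secrete potassium and keep up the voltage that drives sodium reabsorption, whereas other family members shape action potentials in neurons and the heart. Mta2 and Mbd3 belong to NuRD, a chromatin complex that removes histone acetyl groups and moves nucleosomes. Zbtb7a is a DNA-binding zinc finger protein that mostly represses its targets.

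One peak list per factor was deposited, and each stands for both mice. No value per mouse could therefore be given, the counts and folds below carry no replicate error, and no test over mice was possible. The lists held 149855 Mta2, 134248 Mbd3 and 124616 Zbtb7a peaks, and the depth behind them is unknown from these files. The fold of a peak is the authors' own enrichment over background at its summit. Folds were ranked within a list, and values from different lists are set side by side without a comparison of size. A peak was assigned to a gene when its summit lay in the gene or within 1 kb of either end, called the gene window. The kidney marker genes Lrp2, Slc34a1, Umod, Slc12a3 and Aqp2 each held a summit of every factor, and so did all 5 neuronal marker genes examined. Of 5 heart muscle markers, Myh7, Nppa and Actc1 held none. A summit therefore did not mark a gene as belonging to kidney.

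Of the 92 genes, 10 were grouped as renal, 9 as cardiac, 34 as neuronal and 39 as other. Starts of transcription were listed by RefSeq for 68 of them. The stretches around 6 starts are shown because they span the extremes seen at these genes: the strongest renal start with few CpG dinucleotides (Kcnj16), a second renal start of that kind (Kcnj15), CpG-rich starts of a renal, a cardiac and a neuronal gene (Kcnmb4, Kcnj2, Kcnc1), and a renal gene without any summit (Kcna10). Each runs 5′ to 3′ from 250 bases before the start to 50 bases into the gene on assembly GRCm38.p6, with CpG in capitals. They lie at chr11:110967783-110968082 (plus strand), chr16:95257308-95257607 (plus), chr10:116473474-116473773 (minus), chr11:111065914-111066213 (plus), chr7:46396218-46396517 (plus) and chr3:107182893-107183192 (plus), in the order printed.
Kcnj16: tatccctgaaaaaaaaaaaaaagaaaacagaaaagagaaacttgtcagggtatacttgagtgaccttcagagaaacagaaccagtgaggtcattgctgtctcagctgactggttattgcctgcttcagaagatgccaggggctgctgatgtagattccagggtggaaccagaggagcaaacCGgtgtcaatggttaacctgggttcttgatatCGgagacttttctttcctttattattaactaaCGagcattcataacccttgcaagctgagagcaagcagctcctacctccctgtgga
Kcnj15: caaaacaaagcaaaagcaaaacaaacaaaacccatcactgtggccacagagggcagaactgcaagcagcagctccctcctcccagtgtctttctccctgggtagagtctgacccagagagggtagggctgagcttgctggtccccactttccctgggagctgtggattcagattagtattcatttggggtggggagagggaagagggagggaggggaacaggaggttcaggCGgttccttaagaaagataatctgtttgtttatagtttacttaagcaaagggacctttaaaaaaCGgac
Kcnmb4: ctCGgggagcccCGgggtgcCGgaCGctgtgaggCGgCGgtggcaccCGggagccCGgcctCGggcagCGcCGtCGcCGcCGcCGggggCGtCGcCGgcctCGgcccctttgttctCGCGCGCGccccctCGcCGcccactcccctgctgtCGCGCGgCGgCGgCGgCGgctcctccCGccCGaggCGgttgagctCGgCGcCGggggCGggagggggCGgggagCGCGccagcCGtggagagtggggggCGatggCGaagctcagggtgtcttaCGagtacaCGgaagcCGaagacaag
Kcnj2: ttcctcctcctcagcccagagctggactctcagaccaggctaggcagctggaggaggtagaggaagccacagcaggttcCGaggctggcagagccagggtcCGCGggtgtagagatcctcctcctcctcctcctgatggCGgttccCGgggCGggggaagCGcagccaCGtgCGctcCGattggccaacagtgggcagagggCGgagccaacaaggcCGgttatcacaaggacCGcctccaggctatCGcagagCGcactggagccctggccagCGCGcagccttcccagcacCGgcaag
Kcnc1: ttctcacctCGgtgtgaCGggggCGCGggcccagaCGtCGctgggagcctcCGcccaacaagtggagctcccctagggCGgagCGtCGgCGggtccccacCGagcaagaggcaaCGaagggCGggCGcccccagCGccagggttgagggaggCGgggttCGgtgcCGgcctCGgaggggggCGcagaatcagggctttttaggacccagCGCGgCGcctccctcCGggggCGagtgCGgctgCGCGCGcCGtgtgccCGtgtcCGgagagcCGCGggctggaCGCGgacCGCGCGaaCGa
Kcna10: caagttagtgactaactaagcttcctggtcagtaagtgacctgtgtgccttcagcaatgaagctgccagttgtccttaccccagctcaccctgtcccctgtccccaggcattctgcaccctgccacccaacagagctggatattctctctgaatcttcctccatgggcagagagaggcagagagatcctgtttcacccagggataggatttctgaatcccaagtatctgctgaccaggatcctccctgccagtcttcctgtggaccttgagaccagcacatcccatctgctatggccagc

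The numbers of CpG in these stretches were 3 for Kcnj16, 2 for Kcnj15, 48 for Kcnmb4, 18 for Kcnj2, 41 for Kcnc1 and 0 for Kcna10. Kcnj16 and Kcnj15 thus had CpG-poor starts, yet all 3 factors had a summit within 1 kb of both.

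Peaks of the 3 factors were found at most potassium channel genes. Mta2 had a summit in the window of 85 of the 92 genes (92.4%), against 77.7% of all protein-coding genes. Mbd3 had one at 81 genes (88.0%, against 76.5%) and Zbtb7a at 82 genes (89.1%, against 76.0%). The family's spans were long, with a median of 32.7 kb against 17.3 kb for all genes, and a longer span can hold more summits. Summits within 1 kb of a gene end were at 68 genes for Mta2 (73.9%, against 67.2%), 59 for Mbd3 (64.1%, against 65.5%) and 61 for Zbtb7a (66.3%, against 65.6%), which for Mbd3 and Zbtb7a lay near the share over all genes. Within 1 kb of a listed start, a summit was at 55 (Mta2), 45 (Mbd3) and 50 (Zbtb7a) of the 68 genes with such a start, where 67.8%, 66.5% and 66.5% of all genes had one.

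The peaks at these genes ranked low. The median of each gene's highest fold was 12.5 for Mta2 against 16.8 over all genes with a summit, 9.51 against 15.4 for Mbd3, and 9.06 against 16.2 for Zbtb7a. In the order of all genes with a summit, the middle potassium channel gene stood at percentile 32.7 for Mta2, 25.3 for Mbd3 and 24.0 for Zbtb7a. Among the 10000 peaks of highest −log10 q in each list, an Mta2 summit fell at 13 channel genes, an Mbd3 summit at 13 and a Zbtb7a summit at 14. The share over all genes was 29.9%, 29.3% and 30.8%, above the 14.1% to 15.2% of the family. Few channel genes therefore carried peaks of the strongest class, although most had some peak. The 40 genes of calcium and sodium channel subunits (Cacna, Cacnb, Cacng and Scn) showed a similar picture, with summits at 37, 35 and 35 genes and median highest folds of 11.3, 10.3 and 11.7 for Mta2, Mbd3 and Zbtb7a.

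By the median of the highest fold, the renal genes stood at the upper side of the family, the cardiac genes followed, and the neuronal genes were lowest. The median highest Mta2 fold was 25.9 for the 9 of 10 renal genes with a summit, 18.2 for the 9 cardiac genes and 7.99 for the 32 of 34 neuronal genes with one. For Mbd3 the medians were 22.9, 16.2 and 7.21, and for Zbtb7a 22.5, 16.1 and 8.21. The 39 other genes had medians of 11.5 for Mta2, 9.51 for Mbd3 and 8.64 for Zbtb7a, the last close to the neuronal one. By peak rank the neuronal genes were not lowest. A summit among the 10000 highest Mta2 peaks was at 8.82% of neuronal and 5.13% of other genes, and for Zbtb7a at 14.7% and 7.69%. The middle renal gene stood at percentile 78.5 of all genes for Mta2 and the middle neuronal gene at 16.6. Renal and neuronal genes overlapped in all 3 lists, and for Mta2 both groups held genes with folds under 5 and over 35. Grouping rested on textbook expression and not on a measurement in these samples. The lists were, however, drawn up with earlier results of these data known, and whether this shaped the contrast was not tested.

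**Figure D1:**
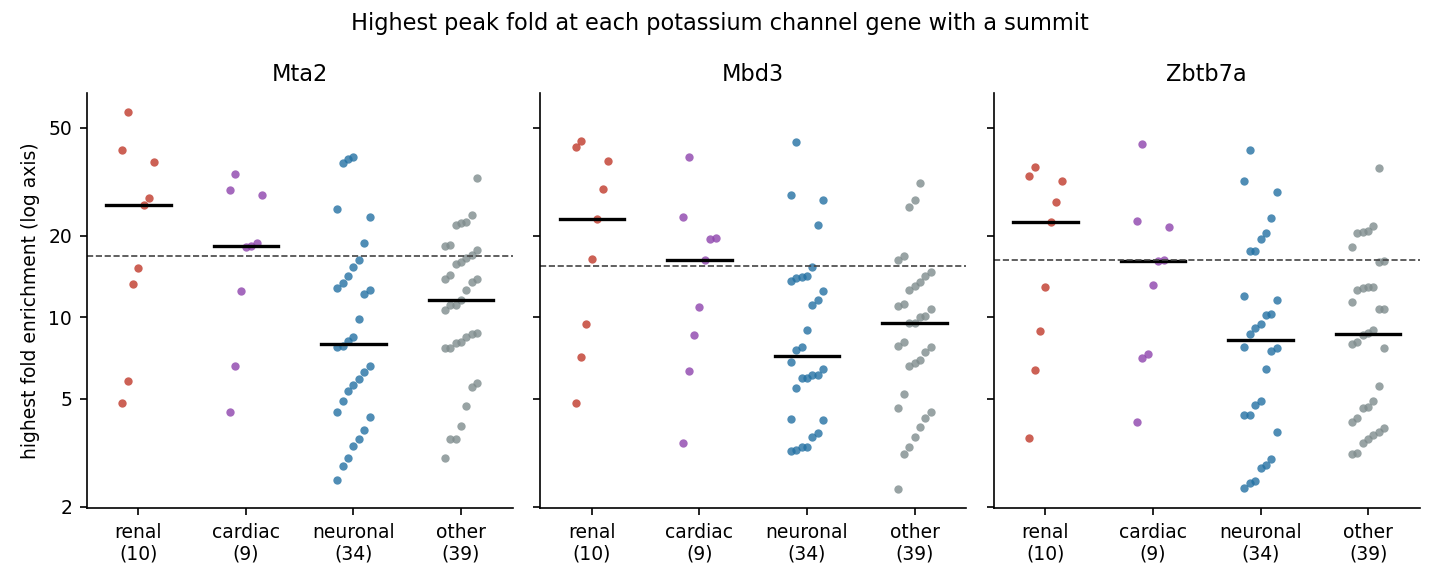
Highest fold enrichment in each gene window (log axis), 1 point per gene with a summit, for Mta2, Mbd3 and Zbtb7a. The solid bar is the class median, the dashed line the median over all genes with a summit, and the number under each class counts its genes; renal medians (25.9, 22.9 and 22.5) lie above the dashed line and neuronal medians (7.99, 7.21 and 8.21) below it.

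Kcnma1, the pore of the large-conductance calcium-activated channel that secretes potassium at high tubular flow, had the highest Mta2 fold and the most Mta2 summits of the family. Its highest Mta2 fold was 57.0, its Mbd3 fold of 44.8 was also the family's highest, and its Zbtb7a fold was 33.0. The Mta2 peak lay at chr14:23835338-23836248, inside the gene and 169342 bp from its nearer end. Over a span of 713 kb it held 36 Mta2, 30 Mbd3 and 27 Zbtb7a summits. Kcnmb4, an auxiliary subunit of the same channel, was the opposite in layout: each factor had 1 summit, at the start shown above, with folds of 15.2 for Mta2, 9.47 for Mbd3 and 8.90 for Zbtb7a.

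Kcnj16 and Kcnj10 encode the inward rectifiers Kir5.1 and Kir4.1, which pair in the basolateral membrane of the distal convoluted tubule. At Kcnj16 the highest Mta2 fold was 41.3, with 42.5 in the Mbd3 list and 31.9 in the Zbtb7a list. All 3 peaks sat on the CpG-poor start shown above, the Mta2 peak at chr11:110966700-110968347. No summit of any factor lay within 1 kb of the other 3 listed starts of Kcnj16. Its window held 13 Mta2, 17 Mbd3 and 8 Zbtb7a summits in all, so most lay away from every listed start. Folds of at least 10 were reached by 3 of the Mta2, 3 of the Mbd3 and 2 of the Zbtb7a summits. Its partner Kcnj10 was covered by 11 Mta2, 12 Mbd3 and 12 Zbtb7a summits, of lower fold (highest 13.3, 16.4 and 12.9). The strongest Kcnj10 peak of Mta2 was 9481 bp inside the gene, whereas that of Zbtb7a was at the start.

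Kcnj15, the inward rectifier Kir4.2 of the proximal tubule, and Kcnk5, the alkaline-activated tandem pore channel TASK-2 of the same segment, had the densest cover of the renal genes. Kcnj15 held 24 Mta2, 23 Mbd3 and 26 Zbtb7a summits over 42.7 kb. Its highest folds of 37.2, 37.7 and 26.5 came from 1 place inside the gene (Mta2 peak chr16:95287138-95288341). The CpG-poor start of Kcnj15 shown above had lower folds of 18.04, 15.6 and 14.8. Kcnk5 held 20 Mta2, 22 Mbd3 and 25 Zbtb7a summits over 41.7 kb, more for Zbtb7a than for Mta2. The highest Kcnk5 folds were 25.9 for Mta2, at chr14:20158284-20160354, 22.9 for Mbd3 and 35.7 for Zbtb7a, the Zbtb7a summit lying 6385 bp from that of Mta2. Both places nevertheless had a peak of every factor: Mta2 reached 22.2 at the second place.

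Kcnk1, a tandem pore channel known as TWIK-1, had 6 Mta2, 8 Mbd3 and 6 Zbtb7a summits, with highest folds of 27.5, 29.7 and 22.5. The Mta2 peak, chr8:125994911-125997409, spanned the listed start, but its summit was 1500 bp downstream, so Kcnk1 is not counted among genes with a start or end summit. Low values closed the renal list. Kcne1, a small auxiliary subunit of voltage-gated channels, had highest folds of 5.81 for Mta2, 7.15 for Mbd3 and 6.38 for Zbtb7a. Kcnj13 (Kir7.1), whose strongest Mta2 summit also fell in the window of Gigyf2, had 4.81, 4.84 and 3.58. Kcna10, a voltage-gated channel of the proximal tubule, held no summit of any factor.

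**Figure D2:**
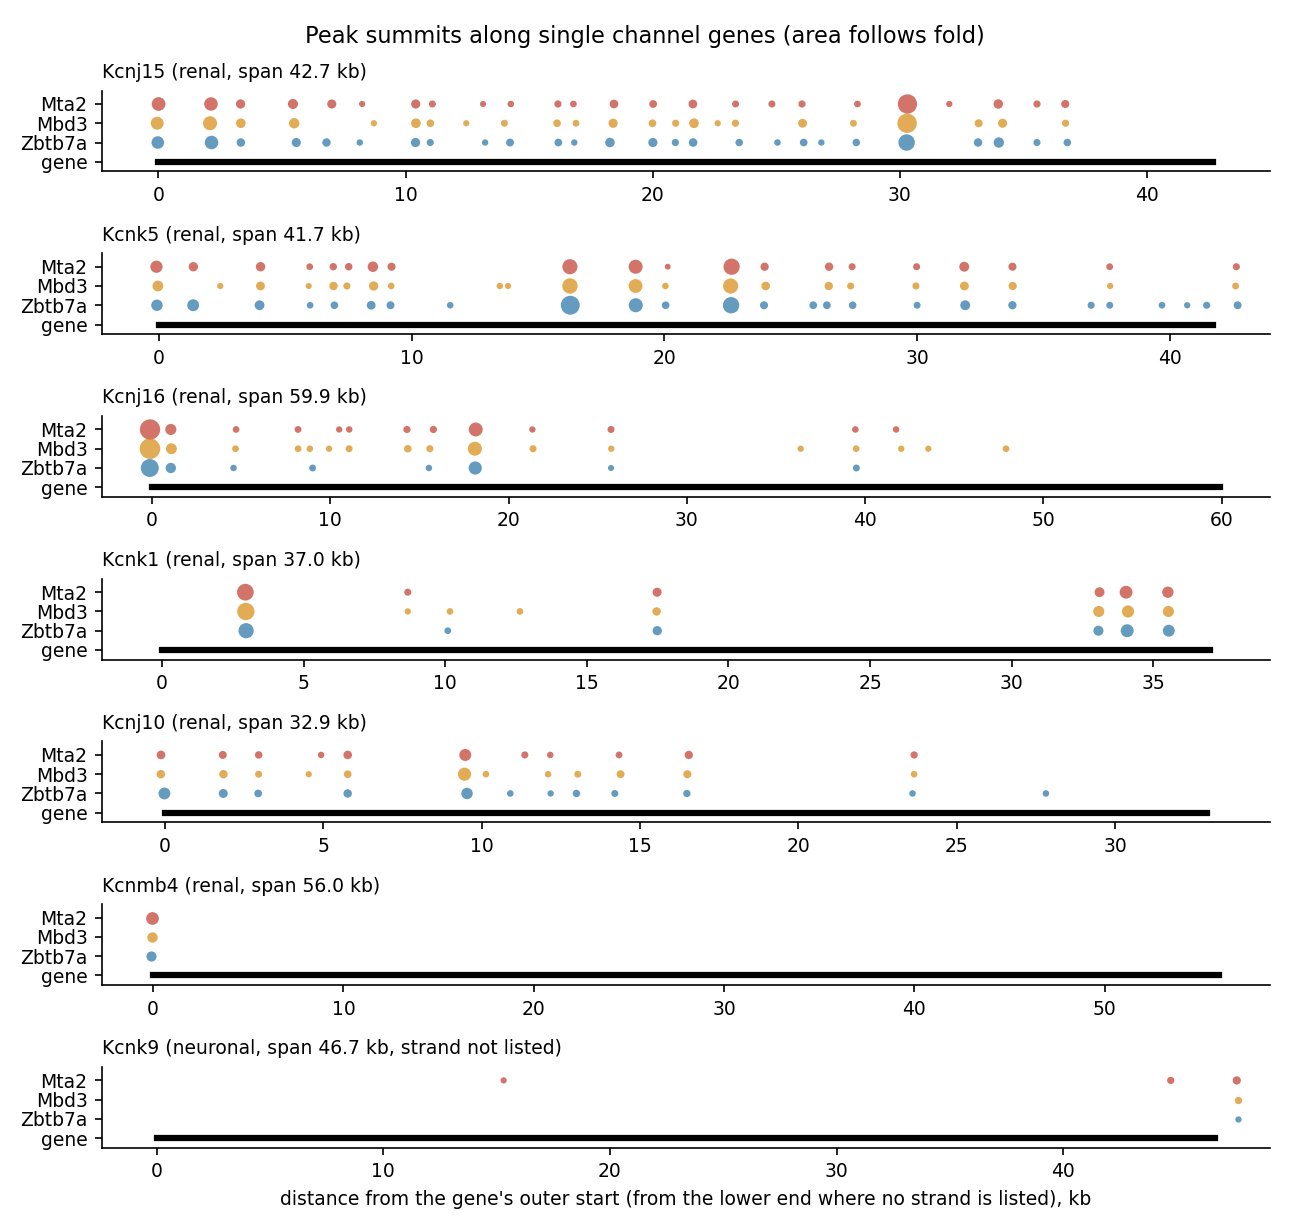
Position of each summit along 6 renal genes and 1 neuronal gene, as distance in kb from the outer start (from the lower coordinate for the neuronal gene Kcnk9, whose strand is not listed). Each dot is 1 summit with its area following the fold, and the black bar is the gene; Kcnj15 and Kcnk5 are covered along their length, Kcnj16 is strongest at its start, and Kcnmb4 has 1 summit per factor.

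All 9 cardiac genes held summits of all 3 factors, with highest Mta2 folds from 4.49 to 33.6. Kcnj12 and Kcnj2, inward rectifiers that hold the resting potential of heart muscle, were highest for Mta2 at 33.6 and 29.5. For Zbtb7a, Kcnj12 reached 43.5, the highest Zbtb7a fold of the family, from a peak inside the gene at chr11:61046991-61048004, and its Mbd3 fold was 38.8. Kcnj2 had 1 summit per factor, each at the start shown above, with folds of 19.6 for Mbd3 and 22.7 for Zbtb7a. It lies on chromosome 11 near Kcnj16, whose start is also shown above.

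Kcnip2 and Kcnd3 form the transient outward channel, Kcnip2 as its auxiliary subunit and Kcnd3 as its pore. Kcnip2 had highest folds of 28.2 for Mta2, 23.5 for Mbd3 and 21.5 for Zbtb7a, at a start whose summit also fell in the window of Armh3. Kcnd3 had 22 Mta2, 16 Mbd3 and 14 Zbtb7a summits and highest folds of 18.2, 19.4 and 13.1. Kcnh2, the rapid delayed rectifier of the heart, had 18.8, 10.9 and 16.1. The subunits of the atrial channel opened by acetylcholine differed: Kcnj3 had 18.2, 16.2 and 7.06, and Kcnj5 had 12.5, 8.56 and 7.34. Lowest for Mta2 were Kcnj11, the pore of the ATP-sensitive channel, with 6.58, 6.34 and 16.2, and Kcna5, the ultrarapid delayed rectifier, with 4.49, 3.42 and 4.11. Kcnj11 stood at percentile 12.7 of all genes for Mta2 and 50.2 for Zbtb7a. Kcnj3 stood the other way, at 55.3 for Mta2 and 17.2 for Zbtb7a, and these were the widest gaps among the 9 cardiac genes.

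The neuronal genes were mostly low, but Kcnt2, Kcnh1 and Kcnb2 reached Mta2 folds like those of the renal genes Kcnj15 and Kcnj16. Kcnt2 (a sodium-activated channel) had a highest Mta2 fold of 38.9, Kcnh1 (ether-a-go-go) 38.3, Kcnb2 (a delayed rectifier) 37.1 and Kcnc1 (a channel of fast-firing neurons) 25.1. Kcnt2, Kcnh1 and Kcnb2 have spans of 368, 321 and 437 kb, and their strongest peaks lay deep inside, 78906 to 164036 bp from the nearer end. Kcnh1 was also high for Mbd3 (44.3) and Zbtb7a (41.5), with 24 Mta2, 23 Mbd3 and 23 Zbtb7a summits. Kcnc1 had its strongest peaks at the CpG-rich start shown above, with folds of 15.3 for Mbd3 and 19.5 for Zbtb7a. Kcnip4, an auxiliary subunit with the longest span of the family (1136 kb), held 21 Mta2, 15 Mbd3 and 10 Zbtb7a summits, with highest folds of 13.4, 14.1 and 12.0.

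Among the genes outside these lists, the highest Mta2 folds were at Kcnrg (32.7), Kcnj4 (23.8), Kcns2 (22.5), Kcnab2 (22.2) and Kcng2 (21.8). Kcnrg encodes a soluble regulator that hinders channel assembly, Kcnj4 is an inward rectifier, Kcnab2 is a cytoplasmic beta subunit, and Kcns2 and Kcng2 are silent subunits that conduct only when joined to others. The silent subunits Kcns2 and Kcng2 stood much lower for Zbtb7a, with folds of 4.67 and 4.26. These are percentile 9.11 and 7.48 of all genes, against 69.9 and 67.6 for Mta2. Both were named for high Mta2 folds, a choice that favours a lower standing in another list. Over the 8 silent subunits with a summit, the median percentile was 27.8 for Mta2 and 14.9 for Zbtb7a. Among them Kcng1 (28.8 and 62.6) and Kcng4 (26.9 and 37.4) stood higher for Zbtb7a, and the others lower. At Kcnab2 the folds were 25.6 for Mbd3 and 35.4 for Zbtb7a. At Kcnrg they were 31.3 and 21.7, and at Kcnj4 27.1 and 20.7.

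Density told the classes apart in the same order, with the span as a caution. The median number of Mta2 summits per 100 kb of window was 17.9 for renal, 15.3 for cardiac and 3.40 for neuronal genes, against 9.14 for all genes. For Mbd3 the medians were 23.97, 11.5 and 2.15, against 8.18, and for Zbtb7a 15.9, 7.90 and 2.38, against 7.58. Long spans went with more summits and lower densities: over the 92 genes, Spearman's rho of span with the number of Mta2 summits was 0.60, given as a description. The classes were therefore also compared at like span.

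**Figure D3:**
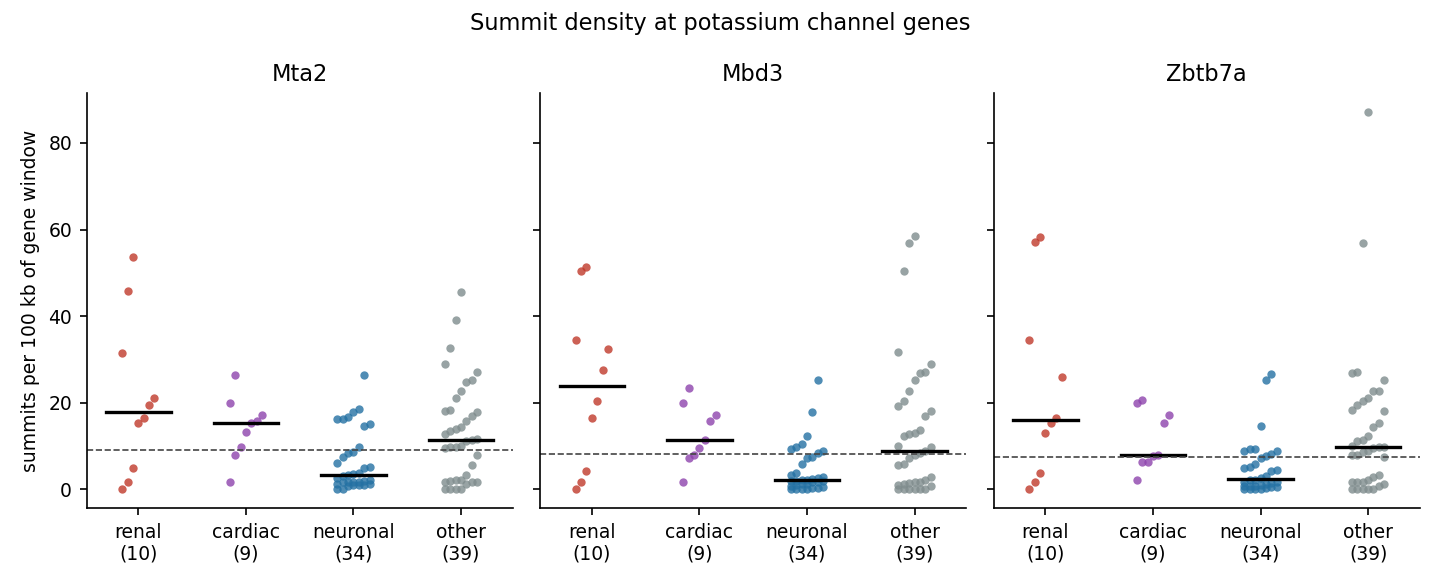
Summits per 100 kb of gene window, 1 point per gene, for Mta2, Mbd3 and Zbtb7a. The solid bar is the class median and the dashed line the median over all protein-coding genes (9.14, 8.18 and 7.58); neuronal genes crowd near 0, and renal medians are the highest of the 4 classes.

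Between 20 and 100 kb, the 6 renal genes had a median of 26.3 Mta2 summits per 100 kb and the 11 neuronal genes 6.16, against 8.70 for all genes of that span. In that span class the medians of the highest Mta2 fold were 26.7 for renal, 23.5 for the 4 cardiac and 6.26 for neuronal genes, against 18.2. Under 20 kb, 3 renal genes had a median of 16.5 and 8 neuronal genes 14.9 Mta2 summits per 100 kb, and for both Mbd3 and Zbtb7a the medians were 16.5 and 9.03. The highest folds did not keep the order in these short genes: the medians over genes with a summit were 5.31 for renal against 7.38 for neuronal genes for Mta2, 5.99 against 6.85 for Mbd3, and 4.98 against 4.54 for Zbtb7a. Over 100 kb, Kcnma1 was the only renal gene, at 5.04 per 100 kb, against a median of 1.67 for 15 neuronal genes and 6.44 for all genes. The renal genes above the medians of all genes of their span in both Mta2 fold and density were Kcnj15, Kcnj16, Kcnk1 and Kcnk5. These lay in the middle span class. Kcnj10, of the same class, was dense (31.5 per 100 kb), but its highest Mta2 fold of 13.3 was below the median. Kcnmb4, also of this class, was below both medians, at 1.72 per 100 kb and a fold of 15.2.

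Genes over 100 kb were also those where the ends were least often occupied. Of the 22 potassium channel genes of this span, 13 had an Mta2 summit within 1 kb of an end, 12 an Mbd3 summit and 10 a Zbtb7a summit (59.1%, 54.5% and 45.5%), whereas all genes of this span had them at 74.9%, 71.7% and 72.4%. Renal genes had summits at an end in 8 of 10 cases (80%) and cardiac genes in 8 of 9 (88.9%), for every factor. The shares over all genes were 67.2%, 65.5% and 65.6% for Mta2, Mbd3 and Zbtb7a. For all genes spanning 20 to 100 kb, the class of most renal genes, they were 78.0%, 76.1% and 76.4%, near the renal share. Neuronal genes had them in 24 of 34 cases for Mta2, 19 for Mbd3 and 17 for Zbtb7a.

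That order of the factors at neuronal gene ends was also the order of list length. Whether list length gave rise to it was not tested, since a cut to equal length also removes the weakest peaks. When the Mta2 and Mbd3 lists were cut to the 124616 peaks of highest −log10 q, the length of the Zbtb7a list, the counts became 19, 18 and 17. Over all 92 genes the cut lists gave a summit at an end for 60 genes with Mta2, 58 with Mbd3 and 61 with Zbtb7a. The shares over all genes were then 65.0% for Mta2 and 64.5% for Mbd3. In the gene window, the shortened lists held 81 channel genes for Mta2 and 80 for Mbd3, where all genes gave 76.3% and 75.9%.

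**Figure D4:**
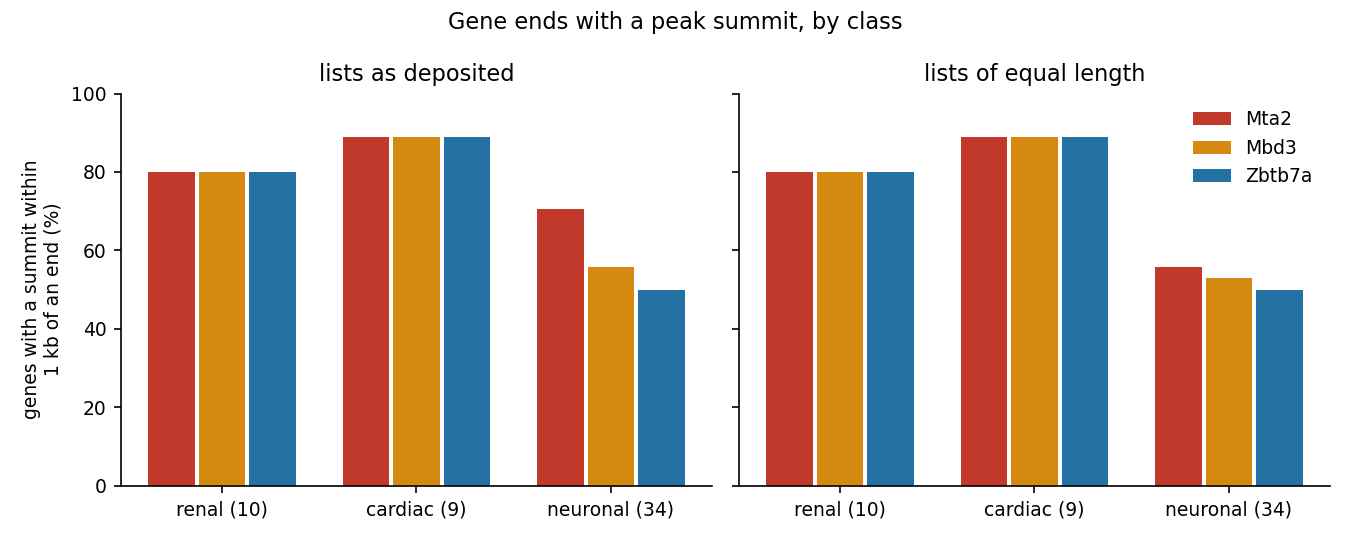
Percentage of renal, cardiac and neuronal genes with a summit within 1 kb of a gene end, with the lists as deposited (left) and cut to equal length (right). The neuronal bars fall from Mta2 to Zbtb7a on the left (24, 19 and 17 of 34 genes) and are nearly level on the right (19, 18 and 17).

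Mta2 and Zbtb7a were compared gene by gene. All 3 factors had a summit at 80 genes (87.0%, against 74.7% of all genes). Mta2 was present without Zbtb7a at 3 genes, against 2.45% of all genes, and Zbtb7a without Mta2 at none, against 0.767%. Among them were Kcnh5, of the ether-a-go-go family, and Kcnk15, a tandem pore subunit, with low Mta2 folds of 2.82 and 5.74. Kcnh5 also had an Mbd3 summit, and Kcnk15 had none. Kcnf1 and Kcnmb1 had Mta2 and Zbtb7a summits without Mbd3, all with folds under 4. With lists of equal length, Mta2 without Zbtb7a was found at 1 gene and the reverse at 2, with no share over all genes computed. The genes without any summit were Kcna10, Kcnd1, Kcne2, Kcnk18, Kcnmb2, Kcnv1 and Kcnv2.

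More summits of Mta2 than of Zbtb7a were counted at 39 genes (42.4%, against 31.6% of all genes), fewer at 16 (17.4%, against 12.3%) and as many at 30. Neuronal genes leaned to Mta2, with more Mta2 summits at 23 of 34 and fewer at 5. Renal genes did not: 2 had more Mta2 and 4 more Zbtb7a summits. Longer genes more often had more Mta2 summits. Over 100 kb this held for 75.4% of all genes, 13 of 15 neuronal genes and the only renal gene, Kcnma1. From 20 to 100 kb it held for 43.0% of all genes, 7 of 11 neuronal and 1 of 6 renal genes. Under 20 kb it held for 15.1% of all genes, 3 of 8 neuronal and 0 of 3 renal genes. The Mta2 list is the longer of the pair, and these counts were not corrected for it. Over the 92 genes, the numbers of Mta2 and Zbtb7a summits ran together with a Spearman's rho of 0.88, and those of Mta2 and Mbd3 with 0.90. The points share span and library, so these are descriptions.

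**Figure D5:**
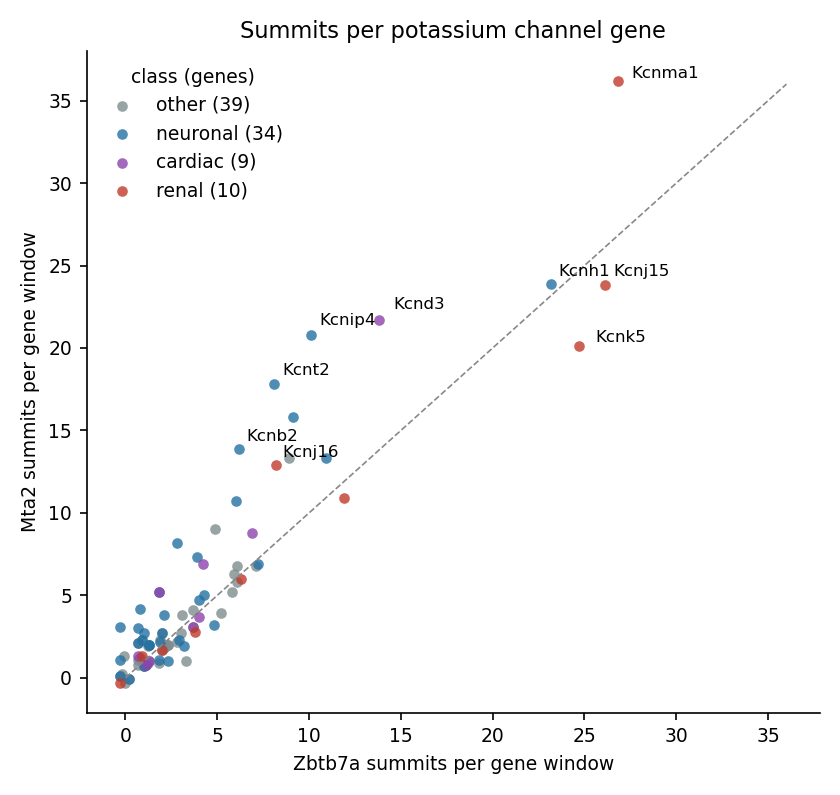
Number of Mta2 summits against number of Zbtb7a summits in each of the 92 gene windows, coloured by class; points are nudged slightly so that equal values can be seen, and the dashed line marks equal numbers. Kcnma1 (36 against 27), Kcnd3, Kcnip4 and Kcnt2 lie above the line, and Kcnk5 (20 against 25) and Kcnj15 (24 against 26) below it.

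The strongest peaks of the factors coincided at most channel genes, as they did over all genes. The highest Mta2 and Zbtb7a summits lay within 250 bp of each other at 62 of 82 genes (75.6%), against 80.0% of all genes with both, with a median distance of 40 bp against 31 bp. For Mta2 and Mbd3 this held at 70 of 81 genes (86.4%), against 87.9%, with a median of 22 bp against 19 bp. These shares were near the background. At renal genes the Mta2 and Zbtb7a summits were within 250 bp in 7 of 9 cases, the exceptions being Kcnk5 and Kcnj10, and at neuronal genes in 20 of 30. Of the 64 channel genes with a listed start and an Mta2 summit, 33 had their strongest Mta2 peak at a listed start (51.6%), against 64.2% of all such genes. It lay more than 1 kb from any start or end, inside the gene, at 29 (45.3%, against 28.4%), and at another end at 2. Among renal genes of this kind, 6 of 8 had it inside. The other 21 channel genes with an Mta2 summit have no listed start and are not counted here.

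Peak by peak, neuronal genes had a lower share than renal and cardiac genes of Mta2 intervals that overlapped a Zbtb7a interval. Of the 471 Mta2 peaks in the gene windows, 66.7% overlapped a Zbtb7a peak by at least 1 bp, against 74.2% over all genes. The share was 77.6% of 116 peaks at renal genes, 66.0% of 53 at cardiac genes and 56.1% of 196 at neuronal genes. In the other direction the classes were close, with 85.6%, 92.1% and 88.2% of Zbtb7a peaks overlapping an Mta2 peak, against 92.0% over all genes. The shares of Mta2 peaks differed with span. Over 100 kb they were close, at 58.3% for the renal gene Kcnma1, 60.0% for cardiac and 55.1% for neuronal genes, against 69.2% for all. Of the 196 neuronal peaks, 138 lay there. From 20 to 100 kb they were 85.3%, 68.0% and 55.6%, against 76.5%.

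Among the 10000 highest peaks of each list, 10 genes (10.9%, against 24.8% of all genes) were shared by Mta2 and Zbtb7a: Kcnma1, Kcnj15, Kcnj16, Kcnk5, Kcnj12, Kcnj2, Kcnj4, Kcnb2, Kcnh1 and Kcnrg. Only Mta2 reached this class at 3 genes, Kcnk1, Kcnip2 and Kcnt2 (3.26%, against 5.20%), and only Zbtb7a at 4 genes, Kcnn1 and Kcnab2 among them (4.35%, against 6.10%). Both counts were near or below the share over all genes. Kcnn1, a small-conductance calcium-activated channel, had highest folds of 15.3 for Mta2 and 17.5 for Zbtb7a. The renal and cardiac genes in only 1 of the classes, Kcnk1 and Kcnip2, were thus on the Mta2 side. Kcnk1 narrowly missed, as its strongest Zbtb7a peak ranked 10425 by −log10 q.

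By structure, the inward rectifiers (Kcnj) and the calcium- or sodium-activated channels (Kcnma, Kcnn, Kcnt, Kcnu) held a summit of each factor at every gene, 14 and 8 in number. All 3 factors were at 74.7% of all genes, 88.8% of those spanning 20 to 100 kb and 95.3% of those over 100 kb. The median spans of these groups were 31.0 and 121 kb, so their full occupancy lay near the shares at like span. Median highest Mta2 folds were 13.5 for inward rectifiers, 10.3 for calcium- or sodium-activated channels, 15.2 for auxiliary subunits, 11.3 for silent subunits, 9.80 for voltage-gated pore subunits and 8.03 for tandem pore channels. All lay below the 16.8 over all genes. Voltage-gated pore subunits (29 genes) had an end summit of Mta2 at 22 genes (75.9%, against 67.2% of all genes). Mbd3 had one at 17 (58.6%, against 65.5%) and Zbtb7a at 15 (51.7%, against 65.6%). Their median span was 36.2 kb, and all genes spanning 20 to 100 kb had end summits at 78.0%, 76.1% and 76.4%. The Mta2 share thus lay near that at like span. The order of the factors was again that of list length, and its cause was not tested.

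Occupancy of the starts was described by their CpG content, with no test. Of 35 listed starts of potassium channel genes with at least 15 CpG in the 300 bases, 32 had an Mta2, 27 an Mbd3 and 29 a Zbtb7a summit within 1 kb (91.4%, 77.1% and 82.9%), against 94.6%, 93.7% and 93.8% of all such starts. Of 22 starts with under 5 CpG, 13 had an Mta2, 8 an Mbd3 and 9 a Zbtb7a summit (59.1%, 36.4% and 40.9%), against 22.1%, 20.6% and 19.9%. The 36 starts between these classes had a summit in 58.3%, 50% and 52.8% of cases, against 64.2%, 62.5% and 63.2%. Starts are not separate: the CpG-poor starts of Kcnk2 and Kcnq5 share their surroundings with CpG-rich starts of the same genes. Leaving out CpG-poor starts within 2 kb of a CpG-rich one, a choice made after seeing the data, left 20 starts, of which 11 had an Mta2, 7 an Mbd3 and 8 a Zbtb7a summit (55.0%, 35.0% and 40.0%), against 21.5%, 19.9% and 19.2%. Beside Kcnj16 and Kcnj15, CpG-poor starts with folds over 10 for every factor were those of Kcna7 and Kcng4. Every other occupied CpG-poor start had folds under 10, and some held Mta2 alone, as at 1 start of Kcnab1 (2.40) and at Kcnip1 (3.44). The letters GACCC or GGGTC, the same word on either strand and a core of the known Zbtb7a site, occurred in 44 of 93 stretches around member starts (47.3%), against 47.2% of all 21045 stretches. Giving the same for every factor, with a summit within 1 kb, the share for channel genes and for all was 54.4% and 53.1% for Zbtb7a, 51.5% and 52.8% for Mta2, and 52.8% and 52.7% for Mbd3. Of the starts printed above, Kcnj15, Kcnj2 and Kcnc1 hold the word. A match describes letters and not a bound site.

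Other genes of potassium handling give the setting. The 20 genes of renal sodium and potassium transport and its control, among them the sodium pump, chloride channels, cotransporters and the WNK pathway, each held a summit of every factor. Their median highest folds were 22.2 for Mta2, 21.1 for Mbd3 and 28.3 for Zbtb7a, near those of the renal channel genes. Nedd4l, a ubiquitin ligase that lowers sodium channel number, was highest for every factor (67.7, 61.5 and 162). The 14 partners of potassium and related channels outside the family, such as Abcc8 and Dpp6, had 14, 13 and 13 genes with a summit and median highest folds of 12.8, 10.9 and 13.1, near the family as a whole.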

How the data were processed

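ChIP-seq was measured in kidney cortex of 8 libraries in 4 groups, each of 2 mice, grouped by the sample labels. Chromatin was fixed with 2 mM disuccinimidyl glutarate and then 1% formaldehyde, per the labels' protocols. Bowtie2, MACS2, deepTools, bedtools and the build mm10 are named by the submitters' processing notes, without versions or settings. Per peak, the deposited lists give an interval, a fold ratio over background, the −log10 q value and a summit offset; the deposited score column was not analysed. The sources used here do not say how the authors combined both mice or used the Input, and a list cannot show signal that fell short of the caller's threshold (lowest deposited −log10 q 1.30).

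Peaks were assigned by summit to RefSeq genes of GRCm38.p6 (the table lists no exons, so exon and intron are not stated) within 1 kb of the ends, with Python 3.11.15 and pandas 2.3.3. The assignment was tested on simulated data. RefSeq promoter stretches matched 68 of 92 genes. The members and all gene lists were chosen with earlier results of these data known, so no test was run over genes, and counts stand beside all genes. Genes were named by rule. These were all renal and cardiac members, and the 5 highest Mta2 folds of the neuronal and of the other members. Also named were the 5 with most Mta2 summits, members without summits and the highest fold per list. So were members with 1 of Mta2 and Zbtb7a (overall or in the top 10000 peaks). Kcna7, Kcng1, Kcng4, Kcnab1, Kcnip1, Kcnf1, Kcnmb1, Kcnk9, Kcnk2 and Kcnq5 were named after their values were seen. Some genes that the rule names are not reported here. Alternatives changed the window, the threshold, the overlap, shared summits and list length.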

Additional observations from a re-analysis of the deposited data

How the results depend on the processing

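With a window of 0.5 kb, with any shared base pair in place of the summit, and without summits shared with a gene outside the family, each of the 48 summary values stayed within 1.5 times the reported one. Settings that dropped weak peaks moved the others. With −log10 q of at least 10, the ratios of class medians of summits per 100 kb were 7.03 (cardiac to neuronal, Mta2), 12.9 (the same, Zbtb7a) and 17.2 (renal to neuronal, Zbtb7a). Median summits per gene were then 1.5 for Mta2 and 1 for Zbtb7a, per 100 kb 5.56, 2.61 and 2.73 for Mta2, Mbd3 and Zbtb7a, and 10 genes had Mta2 without Zbtb7a, 1 the reverse and 14 no summit.

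With a fold of at least 5, neuronal genes with an end summit were 13, 11 and 10, and with any Zbtb7a summit 19; Zbtb7a ends fell to 37 genes, 5 of them cardiac. Density ratios were 7.35, 15.4 and 15.3 (cardiac to neuronal) and 15.2 (renal to neuronal, Zbtb7a), and Mta2 fold ratios 2.12 (renal) and 1.47 (cardiac). Median summits were 1 for each factor, per 100 kb 3.67, 1.70 and 0.872, and 14 genes had Mta2 without Zbtb7a, 2 the reverse and 20 none.

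With the 50000 top peaks of each list, 56 genes had an Mta2 summit (60.9%, against 66.0% of all genes). Mbd3 had one at 55 (59.8%, against 65.3%) and Zbtb7a at 55 (59.8%, against 65.7%). At this setting the family's shares thus lay below those over all genes, unlike with the full lists. End summits were at 38, 36 and 33 genes, of which renal 5 (Mta2), cardiac 5, 4 and 5, and neuronal 9, 7 and 8; neuronal genes with any summit were 17, 16 and 18. Density ratios were 22.6 (renal, Mta2), 28.5 (renal, Zbtb7a), 31.1 (cardiac, Mta2) and 28.7 (cardiac, Zbtb7a), and those for Mbd3 could not be computed because the neuronal median was 0. Fold ratios were 1.94 and 1.91 (renal, Mta2 and Mbd3) and 1.33 and 1.40 (cardiac). Median summits were 1 for each factor, and per 100 kb 1.27, 0.843 and 0.597. Mta2 without Zbtb7a was then found at 9 genes (9.78%, against 2.36% of all genes) and the reverse at 8 (8.70%, against 2.09%). No summit was left at 28 genes. A window of 3 kb gave a cardiac to neuronal density ratio of 2.87 for Mta2 and 5 genes with Mta2 without Zbtb7a. Lists cut to equal length, an alternative chosen after seeing the data, gave 1 such gene and 2 of the reverse.

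The drop in these counts follows from the construction of the settings, which keep fewer peaks. Apart from the shares printed above, no share over all genes was computed for the altered settings. Those counts are therefore not set against a background. Renal and cardiac medians stayed above neuronal ones in every ratio named here. No paired analysis was possible because each list stands for both mice. Depth is unknown, so an absent summit means only that no peak was called.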
